A study of Rattus norvegicus with 15 samples.

Results

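The 9 genes described here, Nell1, Cabp7, Slc35d3, Fam163b, Zswim5, Nol4, Ctnnd2, Pgm5 and Glt1d1, are transcripts of rat islets of Langerhans that were low in every rat with a partial pancreatectomy (Px) and high in every sham-operated rat (Sham). They were 9 of the 28914 genes in the count table, and all 9 were among the 15199 genes with enough counts to be tested. They were picked by name from the values reported below, for a strong fall in Px and for levels that did not follow blood glucose. No threshold was stated for the choice. Their differences between Px and Sham, and between Px rats with higher and lower glucose, are therefore given as descriptions with no test.

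Polyadenylated RNA of isolated islets was sequenced from 10 Px and 5 Sham Lewis rats, 1 library per rat. In the Px rats 90% of the pancreas had been removed, and both groups were followed for 10 weeks after surgery. The labels give an age of 4 to 5 weeks for the rats of both groups without saying at which point. With 10 weeks of follow-up, this cannot be the age at which the islets were taken. No drug, diet or genetic change is named in the labels of either group. Average blood glucose before the end of the study, which carries no unit in the labels, was 416, 421 and 464 in 3 Px rats, called higher-glucose Px here (300 or above). It was 104 to 211 in the 7 lower-glucose Px rats and 88 to 96 in the 5 Sham rats.

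Pancreatectomy leaves the animal to meet its insulin demand from a small remnant, and in rats the islets of that remnant are known to lose part of their mature gene programme. Islet endocrine cells share many genes with neurons, among them genes for regulated secretion, calcium sensing and cell adhesion, and several of the 9 genes are better known from brain than from pancreas. Nell1 encodes a secreted glycoprotein with EGF-like repeats, studied mostly in bone. Cabp7, also called calneuron 2, is a calcium sensor of the Golgi that restrains a phosphatidylinositol 4-kinase. Slc35d3 belongs to the nucleotide sugar transporter family and is needed in mice for normal platelet dense granules. Glt1d1 carries a glycosyltransferase domain. Ctnnd2, or delta-catenin, binds the juxtamembrane tail of cadherins in neurons. Pgm5, or aciculin, is a relative of phosphoglucomutase found at adherens junctions and with dystrophin. Zswim5 has a SWIM-type zinc finger, Nol4 is named for a nucleolar protein and Fam163b for a family of unstudied small proteins, and no role is given for these 3 here.

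Promoter windows are shown for Nell1 and Cabp7, which fell furthest, and for Fam163b and Nol4, which hold a regulatory element that is rare among rat promoters. RefSeq windows of 250 bases before to 50 bases after the start site (assembly GRCr8) matched all 9 genes. In Fam163b the capitals mark a match to RE1, the element bound by the repressor Rest (chr3:30864481-30864780, minus strand). In Nol4 they mark a cyclic AMP response element, or CRE (chr18:14569628-14569927, minus strand). In Nell1 they mark the left part of RE1 alone (chr1:108845212-108845511, plus strand), and in Cabp7 they mark GC boxes, the element bound by Sp1 (chr14:83832618-83832917, minus strand).
Fam163b: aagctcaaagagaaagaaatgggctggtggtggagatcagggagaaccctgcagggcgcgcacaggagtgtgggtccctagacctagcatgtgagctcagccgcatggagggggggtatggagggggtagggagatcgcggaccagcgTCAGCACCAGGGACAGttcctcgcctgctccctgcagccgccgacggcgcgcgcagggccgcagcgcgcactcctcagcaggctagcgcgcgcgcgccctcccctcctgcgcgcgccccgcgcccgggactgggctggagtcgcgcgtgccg
Nol4: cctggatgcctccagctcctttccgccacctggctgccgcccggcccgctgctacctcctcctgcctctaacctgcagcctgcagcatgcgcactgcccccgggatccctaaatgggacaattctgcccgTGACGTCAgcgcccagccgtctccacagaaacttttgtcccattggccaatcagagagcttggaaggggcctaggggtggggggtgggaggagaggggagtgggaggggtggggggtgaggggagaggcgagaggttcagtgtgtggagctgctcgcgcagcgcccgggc
Nell1: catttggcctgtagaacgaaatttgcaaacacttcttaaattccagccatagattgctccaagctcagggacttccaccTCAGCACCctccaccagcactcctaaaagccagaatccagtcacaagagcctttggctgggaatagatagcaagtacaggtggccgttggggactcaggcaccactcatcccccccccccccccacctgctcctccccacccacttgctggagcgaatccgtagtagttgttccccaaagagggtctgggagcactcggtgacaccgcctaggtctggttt
Cabp7: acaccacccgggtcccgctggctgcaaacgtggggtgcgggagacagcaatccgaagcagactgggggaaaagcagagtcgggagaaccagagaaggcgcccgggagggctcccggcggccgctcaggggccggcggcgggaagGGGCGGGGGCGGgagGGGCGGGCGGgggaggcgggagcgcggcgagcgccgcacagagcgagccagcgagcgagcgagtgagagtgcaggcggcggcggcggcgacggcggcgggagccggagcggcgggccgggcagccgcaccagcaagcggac

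The motifs were chosen with these windows in view and were searched on both strands of 27457 rat promoter windows of the same length. RE1, searched as the capitals in Fam163b with any base at the pair of positions in its middle, was found in 9 windows (0.0328%), and Fam163b was the only one of the 9 genes to hold it, with its first base 102 bases before the start site (position -102). Its left part, TCAGCACC, which lies inside the full motif, was in 435 windows (1.58%), those of Nell1 (position -171) and Fam163b among them. The CRE, TGACGTCA, was in 525 windows (1.91%) and in Nol4 at position -120. The GC box, GGGCGG, was common: 34.9% of windows had it, and 6 of the 9 genes did, Slc35d3, Pgm5, Ctnnd2, Zswim5, Cabp7 and Nol4. The homeodomain letters TAATTA (5.35% of windows), the E-box CAGATG (16.3%) and the TATA box TATAAA (14.3%) were in none of the 9. GC content ran between 55.3% in Nell1 and 78.7% in Zswim5, above the median of 52.3% over all windows in each of the 9. A ratio of observed to expected CpG of at least 0.6 was found in 6 of the 9, against 36.9% of all windows. These matches describe letters and show no binding.

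The libraries of the 2 groups differed in more than islet genes. Total counts per library were 19108091 to 33423286 in Px and 12205650 to 18428397 in Sham. Acinar marker genes took 21.5% to 51.1% of all counts in Px, against 1.13% to 15.8% in Sham. Of the markers tested, 23 of 24 acinar, 10 of 13 duct, 15 of 15 macrophage, 17 of 17 fibroblast, 8 of 10 endothelial, 6 of 6 lymphocyte and 5 of 10 Schwann cell or neuron genes rose in Px and 1 of the last fell (edgeR quasi-likelihood test, adjusted p under 0.05), where 34.5% of all 15199 genes rose. Summed macrophage markers were 857 to 4512 CPM in Px and 36.3 to 80.5 CPM in Sham, and the scavenger receptor Marco had no count in any Sham library. Summed fibroblast markers were 2385 to 10583 CPM in Px and 394 to 859 CPM in Sham. Among islet genes, 12 of 12 beta cell transcription factors and 4 of 8 endocrine granule genes fell, where 30.2% of all genes fell. Of the alpha cell genes 2 of 8 rose, and of the delta and PP cell genes 3 of 6, where 34.5% of all genes rose. None of these alpha, delta and PP cell genes was called lower. No beta cell factor or granule gene was at 0 in any Sham library or in the Px group as a whole. In RNA from whole islets, fewer cells of a type and less RNA per cell cannot be told apart, and the part of these other cell types in the values below was tested only through the covariates given with them.

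Levels are CPM, read counts set against the size of their library after TMM scaling, and a log2 fold change is that of Px over Sham from edgeR with its standard error (SE). The median log2 fold change of the 9 genes was -1.74, where that of all 15199 genes tested was 0.02 and that of the 12 beta cell factors was -0.97. All 10 Px libraries lay below all 5 Sham libraries for each of the 9 genes, a pattern that 16.4% of all genes tested showed in CPM. Although the Px libraries held more counts in total, the raw counts of the 10 Px libraries were also below the 5 Sham libraries for each of the 9 genes, a pattern shared by 2.80% of all genes. A log2 fold change of -1 or lower, which all 9 had, was found for 4.38% of all genes, and 30.2% of all genes were called lower. As the genes were chosen on this contrast, nothing is read from these shares.

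**Figure D1:**
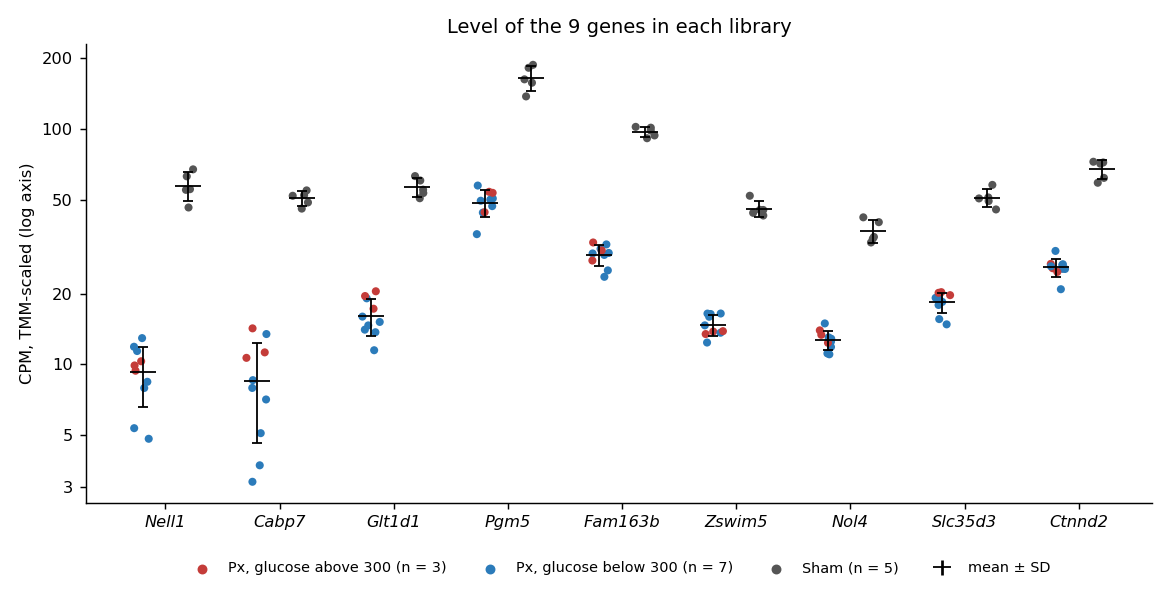
Level of each of the 9 genes in CPM (TMM-scaled, log axis) in every library, with Px on the left and Sham on the right of each pair; points are rats, bars are mean ± SD, and Px points are coloured by blood glucose. No Px point reaches a Sham point of the same gene, and the widest Px spreads are those of Cabp7 (3.17 to 14.2 CPM) and Nell1 (4.83 to 12.9 CPM).

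Nell1, the secreted factor, had the largest fall of the 9. In the Px libraries its level was 11.9, 11.4, 4.83, 7.94, 5.36, 10.3, 12.9, 9.40, 8.44 and 9.90 CPM (replicates 2, 4, 8, 10, 11, 13, 14, 15, 16 and 19), against 55.2, 46.4, 63.0, 55.5 and 67.4 CPM in Sham (replicates 23 to 27). The highest Px rat was at 12.9 CPM and the lowest Sham rat at 46.4 CPM, so the groups were far apart, and Px replicates 8 and 11 were the lowest. The means were 9.24 ± 2.66 CPM in Px (SD, n = 10) and 57.5 ± 8.07 CPM in Sham (SD, n = 5), and the log2 fold change was -2.64 ± 0.18 (SE). Px kept 16.1% of the Sham mean. Among the 10484 genes with at least 5 CPM, this was the third largest fall (rank 3). The gene spans 869890 bases with 20 exon blocks (chr1:105349069-106218958, plus strand, positions as in the count table, for which no source used here names a genome build).

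Cabp7, the Golgi calcium sensor, had nearly the same fall and the widest spread. It had 7.09, 7.94, 3.73, 5.10, 3.17, 10.7, 13.5, 14.2, 8.57 and 11.2 CPM in Px (replicates in the order above), against 52.4, 45.9, 48.8, 52.1 and 54.9 CPM in Sham. The 3 higher-glucose rats and replicate 14, the Px rat with the lowest glucose, made up the upper end of the Px range, and replicates 8 and 11 the lower end. Px averaged 8.52 ± 3.87 CPM (SD, n = 10) and Sham 50.8 ± 3.49 CPM (SD, n = 5), with a log2 fold change of -2.58 ± 0.27 (SE) and rank 4 among the same 10484 genes. The coefficient of variation of Cabp7 was 45.4% in Px and 6.86% in Sham, where the median over 10605 genes with a Px mean of at least 5 CPM was 15.7% in Px and 13.8% in Sham. The gene (chr14:84968130-84978255, minus strand) shares 540 exon bases with Zmat5 on the other strand. Libraries were made with a directional kit per the labels, no source used here gives the strand setting of the counting, and Zmat5 itself had 7.76 ± 1.32 CPM in Px and 7.01 ± 0.89 CPM in Sham.

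Among the genes of sugar transfer, Glt1d1 had the larger fall. Glt1d1 ran from 11.5 to 20.5 CPM in Px (median 15.6) and had 53.5, 50.8, 60.5, 55.3 and 63.1 CPM in Sham. Its means were 16.1 ± 2.89 CPM in Px (SD, n = 10) and 56.6 ± 5.06 CPM in Sham (SD, n = 5), a log2 fold change of -1.81 ± 0.11 (SE). The highest Px library was well under the lowest Sham library. Slc35d3 lay between 14.8 and 20.3 CPM in Px (median 18.8), against 50.7, 51.2, 45.6, 49.5 and 57.9 CPM in Sham. It averaged 18.4 ± 1.84 CPM in Px (SD, n = 10) and 51.0 ± 4.48 CPM in Sham (SD, n = 5), a log2 fold change of -1.47 ± 0.08 (SE). Slc35d3 is a compact gene, with 3473 bases and 2 exon blocks (chr1:15298526-15301998, minus strand), and Glt1d1 spans 74098 bases with 12 exon blocks (chr12:32666635-32740732, minus strand).

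The junction protein genes Pgm5 and Ctnnd2 were low in all Px rats. Pgm5 had the highest level of the 9 in both groups, at 35.8 to 57.6 CPM in Px (median 49.9), against 138, 157, 182, 188 and 163 CPM in Sham. Its means were 48.7 ± 6.22 CPM in Px (SD, n = 10) and 166 ± 20.1 CPM in Sham (SD, n = 5), a log2 fold change of -1.76 ± 0.10 (SE). The lowest Sham rat, at 138 CPM, was far above the highest Px rat, at 57.6 CPM. Ctnnd2 lay between 20.9 and 30.4 CPM in Px (median 25.9), with 59.1, 62.0, 72.1, 72.6 and 71.3 CPM in Sham. Its means of 25.8 ± 2.32 CPM in Px (SD, n = 10) and 67.5 ± 6.36 CPM in Sham (SD, n = 5) gave a log2 fold change of -1.38 ± 0.08 (SE), the smallest of the 9 and rank 104 among the 10484 genes with at least 5 CPM. Ctnnd2 spans 701034 bases with 22 exon blocks (chr2:83393282-84094315, plus strand), and Pgm5 spans 183166 bases with 12 (chr1:242582642-242765807, minus strand).

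Fam163b, Zswim5 and Nol4, which have little known function, varied little among Px rats. Fam163b lay between 23.6 and 33.0 CPM in Px (median 29.7), with 91.4, 94.0, 98.6, 101 and 102 CPM in Sham. Its means were 29.2 ± 2.995 CPM in Px (SD, n = 10) and 97.5 ± 4.68 CPM in Sham (SD, n = 5), a log2 fold change of -1.74 ± 0.08 (SE). Zswim5 lay between 12.4 and 16.5 CPM in Px (median 14.2), with 42.9, 44.1, 45.4, 45.3 and 52.1 CPM in Sham, a log2 fold change of -1.64 ± 0.08 (SE). Nol4 lay between 11.04 and 14.9 CPM in Px (median 12.7), with 34.2, 34.8, 40.2, 33.0 and 42.2 CPM in Sham, a log2 fold change of -1.54 ± 0.08 (SE). For each of the 9 genes the gap between the groups was wider than the whole range of the Px libraries. The genes were picked on this contrast, so nothing is read from that gap. The coefficients of variation of Fam163b, Zswim5 and Nol4 in Px were 10.3%, 10.2% and 9.53%, under the 15.7% median of genes with a Px mean of at least 5 CPM. Ctnnd2 (8.99%), Slc35d3 (10.0%) and Pgm5 (12.8%) were under it too. Nell1 (28.8%), Cabp7 (45.4%) and Glt1d1 (17.9%) were above it. Picking genes for levels that did not follow glucose favours a small spread in Px, so nothing is read from the low values. Fam163b is at chr3:5656163-5693147 (minus strand, 3 exon blocks), Zswim5 at chr5:135735825-135852575 (plus strand, 14 exon blocks) and Nol4 at chr18:13658271-14016713 (minus strand, 10 exon blocks).

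Between genes, levels were compared per kilobase of exon. In Px the order was Pgm5 (28.6 CPM per kb), Fam163b (10.6), Slc35d3 (7.04), Ctnnd2 (5.56), Glt1d1 (5.34), Zswim5 (4.73), Nell1 (3.20), Cabp7 (3.11) and Nol4 (2.50 CPM per kb). In Sham it was Pgm5 (97.1 CPM per kb), Fam163b (35.6), Nell1 (19.9), Slc35d3 (19.5), Glt1d1 (18.7), Cabp7 (18.6), Zswim5 (14.8), Ctnnd2 (14.5) and Nol4 (7.25 CPM per kb). Neighbours differed by less than the spread between rats from Ctnnd2 to Zswim5 and from Nell1 to Nol4 in Px, and from Nell1 to Cabp7 and from Zswim5 to Ctnnd2 in Sham. The place of Nell1 and Cabp7 was thus lower in the Px order than in the Sham order. In Sham, Pgm5 stood above 97.8% and Nol4 above 59.4% of all genes tested on this scale.

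Most of the 9 are long genes. Their median span was 116751 bases, against 19918 bases over all genes tested, and Nell1, Ctnnd2, Nol4 and Pgm5 were longer than 99.4%, 99.2%, 98.1% and 94.5% of them. Slc35d3 and Cabp7 were shorter than most, above only 14.7% and 32.6%. Across all genes tested, the median log2 fold change was 0.27, 0.09, -0.08 and -0.17 in 4 equal sets of rising span, and 17.39%, 24.39%, 36.01% and 43.16% of the genes in these sets were called lower in Px. The part of span in the fall of the 9 genes was not tested.

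The question of the study, the effect of hyperglycaemia on islets, was addressed by setting the 3 higher-glucose Px rats against the 7 lower-glucose Px rats. The median log2 fold change of the 9 genes, higher-glucose over lower-glucose Px, was 0.08 under TMM, -0.38 under library totals and -0.33 under granule scaling, so its direction turned with the scaling. Of the 8 granule genes, 3 were themselves called higher in higher-glucose Px under TMM, with log2 fold changes of 0.79 to 0.91. A fold change under granule scaling is thus relative to genes that differed. Under TMM the values of the 9 genes lay between -0.14 ± 0.10 for Zswim5 and 0.79 ± 0.30 for Cabp7 (SE). None of the 9 was called in this comparison, where 3.29% of 15661 genes were called higher and 1.59% lower; the genes were picked for levels that did not follow glucose, so the count is a description. Cabp7 averaged 12.0 ± 1.91 CPM in higher-glucose Px (SD, n = 3) and 7.01 ± 3.51 CPM in lower-glucose Px (SD, n = 7), and the rat with the lowest glucose of all Px rats (104) had 13.5 CPM, inside the higher-glucose range of 10.7 to 14.2 CPM. Glt1d1 averaged 19.1 ± 1.65 CPM in higher-glucose Px and 14.9 ± 2.33 CPM in lower-glucose Px, a log2 fold change of 0.36 ± 0.12 (SE), and the ranges overlapped. Slc35d3 had 19.7 to 20.3 CPM in higher-glucose Px and 14.8 to 19.2 CPM in lower-glucose Px, with a log2 fold change of 0.19 ± 0.10 (SE). These ranges did not meet, but the share of all genes with such a gap was not counted, so nothing is read from it. For Ctnnd2 the log2 fold change was -0.01 ± 0.10 (SE), and for Fam163b, Nol4 and Pgm5 it was 0.08 in each.

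**Figure D2:**
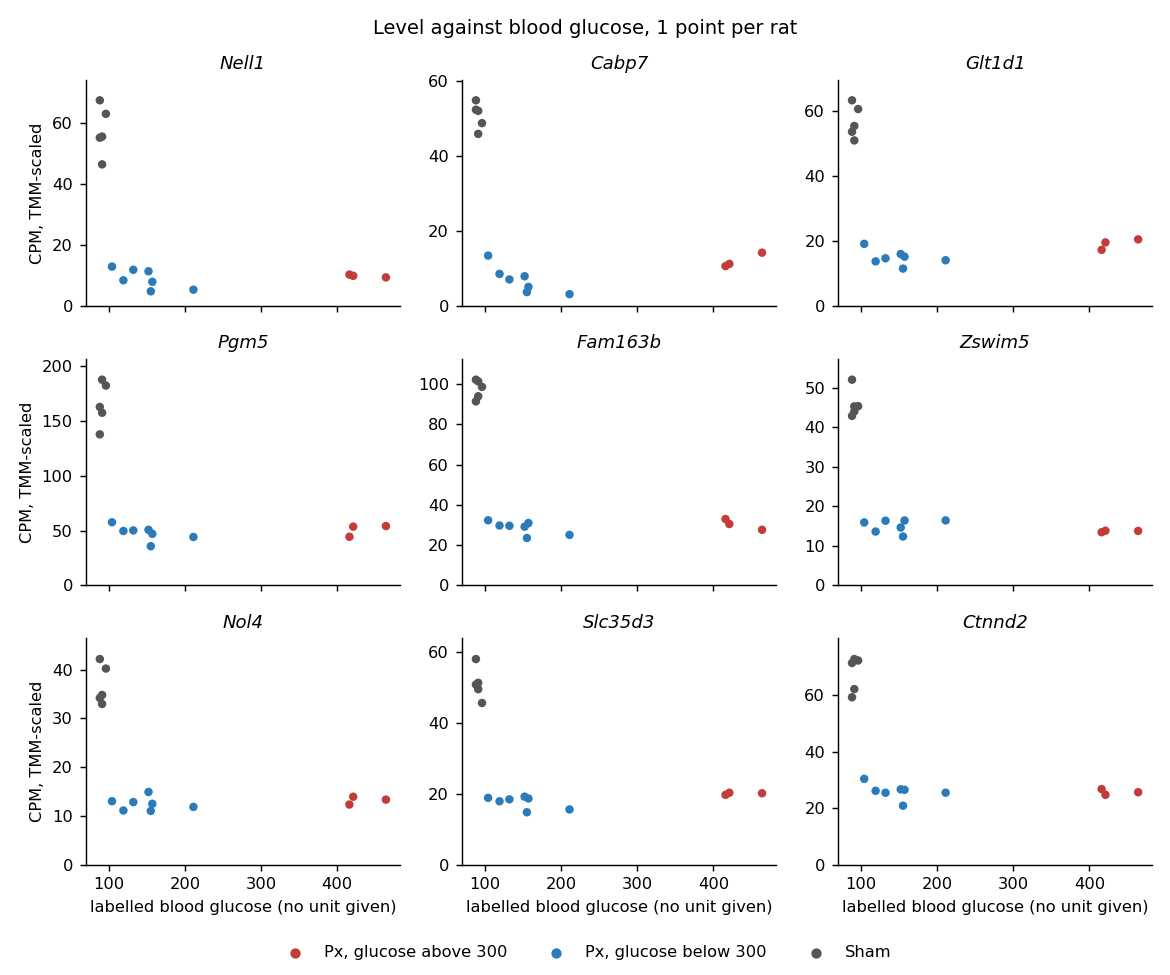
CPM (TMM-scaled, linear axis starting at 0) of each of the 9 genes against the labelled blood glucose of each rat; points are rats, coloured as higher-glucose Px, lower-glucose Px and Sham. The Px rat with a glucose of 104 lies with the other Px rats and not with the Sham rats at 88 to 96, as for Nell1 with 12.9 CPM against 46.4 to 67.4 CPM.

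The lowest-glucose Px rats were close to Sham in glucose and far from it in these genes. Px replicate 14, with a glucose of 104, had 12.9 CPM of Nell1, 30.4 CPM of Ctnnd2 and 57.6 CPM of Pgm5, its group's highest values for these genes, where the lowest Sham values were 46.4, 59.1 and 138 CPM. Px replicate 16, with a glucose of 119, had 8.44 CPM of Nell1. Against Sham, Nell1 had a log2 fold change of -2.55 ± 0.29 in higher-glucose Px and -2.68 ± 0.21 in lower-glucose Px (SE), and Cabp7 had -2.08 ± 0.35 in higher-glucose Px and -2.87 ± 0.26 in lower-glucose Px (SE). Both comparisons use the same 5 Sham libraries.

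The sum of the 9 genes showed how single libraries stood. It was 138 to 214 CPM in Px (median 187) and 577 to 674 CPM in Sham (median 652). Px replicate 8 had the lowest sum, the lowest level of 8 of the 9 genes (all but Cabp7), the highest summed macrophage markers (4512 CPM, where the other Px libraries had 857 to 2458 CPM) and the lowest summed granule genes (7527 CPM). Without it the median log2 fold change of the 9 genes was -1.71. Set against the 8 granule genes of the same library, the sum of the 9 was 13.9 to 22.6 per 1000 granule CPM in Px and 37.7 to 44.6 in Sham. On that scale replicate 8, with 18.4, was inside the range of the other Px libraries. The groups did not overlap on it, but the 9 genes were picked on this contrast, so nothing is read from that.

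How the libraries were scaled moved the size of the fall and not its direction. Scaled by library totals alone, all genes had a median log2 fold change of -0.62 and the 9 genes one of -2.40, between -3.33 and -2.03. Scaled to the 8 granule genes, all genes had a median of 0.46 and the 9 genes one of -1.30, between -2.20 and -0.94. The split of all calls moved with the scaling: 53.3% of calls were higher in Px under TMM, 25.1% under library totals and 88.2% under granule scaling. With the acinar, macrophage or fibroblast score as a covariate, the median of the 9 genes was -1.92, -1.55 or -1.46, and every one of the 9 fold changes was negative in each of these fits. The summed markers of these 3 lists did not overlap between the groups, and with the macrophage score no gene of the 15199 was called by edgeR (975 lower and 1147 higher at an unadjusted p under 0.05). With the acinar score 3088 genes were called higher and 2491 lower, and with the fibroblast score 1630 and 1063. Without a covariate 5242 were higher and 4596 lower, so the loss of a call under these scores was common.

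**Figure D3:**
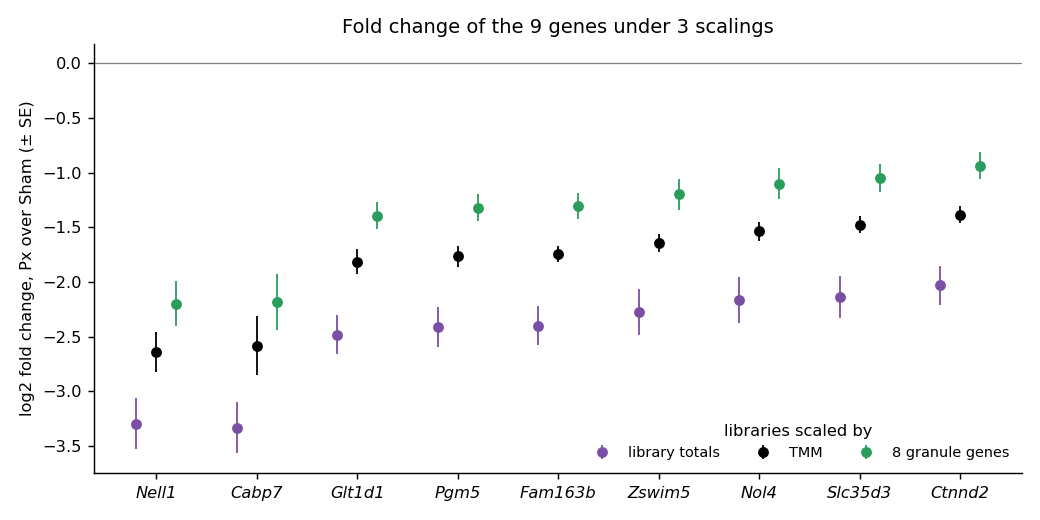
Log2 fold change, Px over Sham, of each of the 9 genes with its SE, when libraries were scaled by their totals, by TMM or by 8 endocrine granule genes. All values are below 0, from -3.33 under library totals to -0.94 for Ctnnd2 under granule scaling, and the order of the genes is nearly the same in the 3.

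Within the 10 Px libraries, each gene was related to 3 measures that the choice had not used: the acinar share of counts, the mean level of the granule genes and the library total. Of these 27 relations none passed after adjustment (two-sided permutation tests, 100000 resamples), and at an unadjusted p under 0.05 there was 1 for Pearson's r and 1 for Spearman's rho. By rho it was Slc35d3 with the granule level (rho = 0.67, permutation p = 0.039, and r = 0.59, permutation p = 0.0803). By r it was Glt1d1 with the granule level, with r = 0.67 (permutation p = 0.0354, adjusted p = 0.496) and Spearman's rho = 0.59 (permutation p = 0.0799, adjusted p = 0.604). Without the 2 libraries farthest from the median granule level (replicates 19 and 8) r was 0.25 for Glt1d1 and 0.015 for Slc35d3, so both relations rested on them, and within the 7 lower-glucose libraries r was 0.36 for Glt1d1 and 0.25 for Slc35d3. When libraries were scaled by their totals alone, 14 of the 27 relations passed. With that scaling the acinar counts are part of the total that divides every gene, so levels and acinar share are not independent. Nothing is read from these 14. The labels give no sequencing batch or date.

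Paralogs of the 9 genes were examined next, as genes of the same families that were not picked for a value. Of 18 tested, 4 fell, 3 rose and 11 did not pass, with a median log2 fold change of -0.20, where 30.2% of all genes fell and 34.5% rose. Fam163a fell with Fam163b: it had 9.63 ± 1.47 CPM in Px (SD, n = 10) and 22.7 ± 2.59 CPM in Sham (SD, n = 5), a log2 fold change of -1.24 ± 0.11 (SE, edgeR adjusted p = 1.07e-07). Among relatives of Pgm5, the phosphoglucomutase enzyme Pgm1 fell by 0.33 ± 0.09 on the log2 scale (edgeR adjusted p = 0.00552). Its level was 38.5 ± 2.29 CPM in Px and 48.2 ± 8.97 CPM in Sham, and the direction turned under granule scaling (0.14). The other catenin relatives went both ways: Pkp1, a desmosomal plakophilin, rose by 2.995 ± 0.42 (edgeR adjusted p = 1.15e-05), and Pkp4 fell by 0.32 ± 0.08 (0.00199 by the same test) but had a log2 fold change of 0.11 under granule scaling. The ubiquitous p120 catenin Ctnnd1 had 276 ± 30.6 CPM in Px and 310 ± 31.4 CPM in Sham and did not pass (edgeR adjusted p = 0.118). Slc35d2, a relative of Slc35d3, rose to 2.83 ± 0.99 CPM in Px, against 0.70 ± 0.31 CPM in Sham (log2 fold change 2.01 ± 0.31, edgeR adjusted p = 3.16e-05). Zswim6 rose by 0.51 ± 0.12 (edgeR adjusted p = 0.00171), with -0.11 under library totals, and Zswim8 fell by 0.35 ± 0.13 (edgeR adjusted p = 0.0271), with 0.11 under granule scaling and adjusted p-values of 0.0546 to 0.0748 without Sham replicate 25, 26 or 27. Pkp1 and Slc35d2 were low in Sham. Their log2 fold changes were 4.50 and 2.90 once the acinar score was added as a covariate (edgeR adjusted p = 0.000571 and 0.00107) and -0.44 and 0.51 with the fibroblast score (0.643 and 0.670). Over all genes, 1630 were called higher with the fibroblast score, against 5242 without a covariate. Scaled by library totals, 14 paralogs were called lower and 2 higher, and scaled to the granule genes 1 lower and 7 higher.

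**Figure D4:**
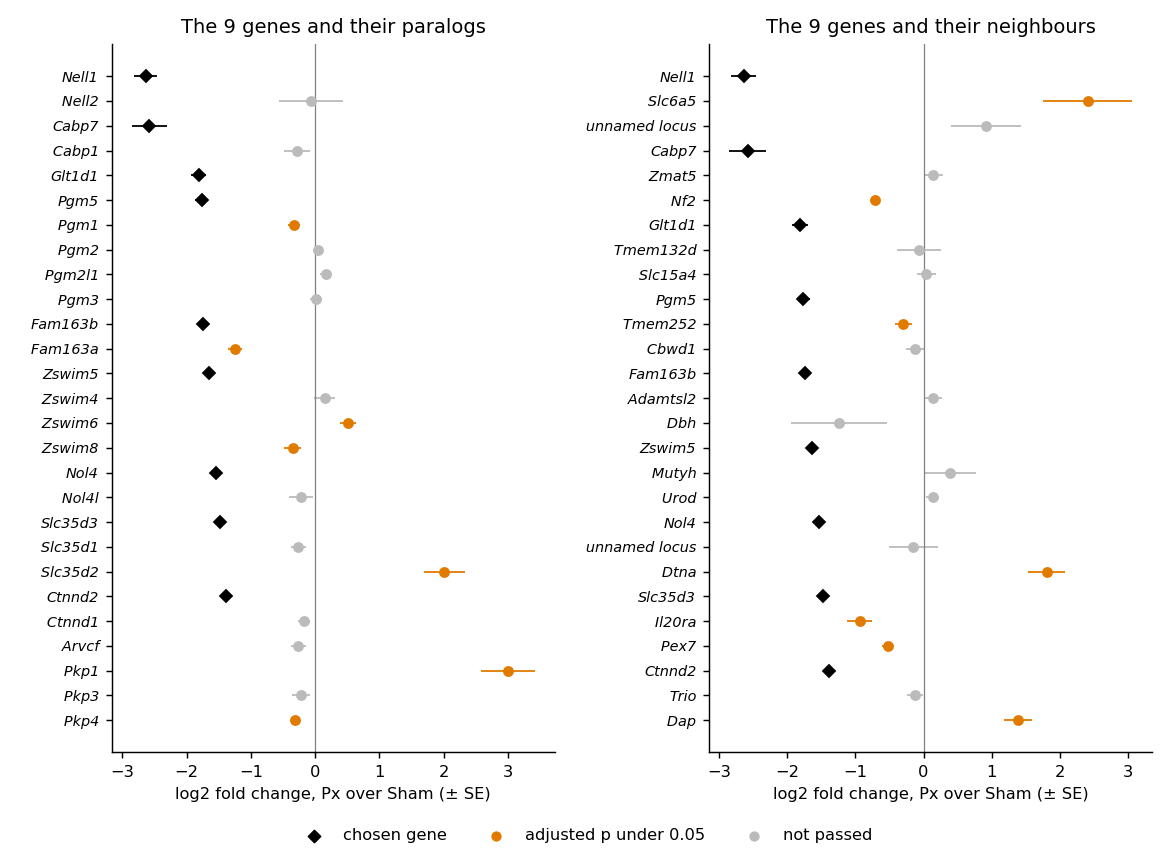
Log2 fold change, Px over Sham, with its SE, of the 9 genes (black diamonds), of their tested paralogs (left) and of the nearest tested gene on each side along the chromosome (right); orange points passed the edgeR test at an adjusted p under 0.05. In both panels the other genes lie on both sides of 0 while the 9 genes lie between -2.64 and -1.38; the Fam163a point at -1.24 is the closest to its relative.

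Nell2, the paralog of Nell1 and a secreted neuronal factor, is the one tested paralog that differed between higher- and lower-glucose Px. It had 40.4, 40.4 and 39.4 CPM in the 3 higher-glucose Px rats and 4.00 to 11.5 CPM in the 7 lower-glucose Px rats, against 16.02, 14.2, 21.8, 20.4 and 20.3 CPM in Sham. The 3 ranges did not meet: the higher-glucose Px rats were above Sham and the lower-glucose Px rats below it. Other islet genes also differed by glucose. Summed delta and PP cell markers were 2341 to 2850 CPM in higher-glucose Px and 892 to 1662 CPM in lower-glucose Px. The Sham range, 1288 to 2244 CPM, overlapped that of lower-glucose Px. Of 6 delta and PP genes 3 were called higher in higher-glucose Px, as were 3 of 8 granule and 1 of 8 alpha genes. Of 12 beta cell factors 0 were called, and over all 15661 genes 3.29% were called higher. Somatostatin, Sst, had a log2 fold change of 1.88 for higher-glucose over lower-glucose Px (edgeR adjusted p = 0.000436). The part of these genes in the Nell2 values was not tested. For Nell2 the log2 fold change was 2.29 ± 0.22 for higher-glucose over lower-glucose Px (SE, edgeR adjusted p = 3.52e-05). It was 1.85 to 2.40 under the scalings, filters and tools tried and without single libraries, each with an adjusted p under 0.05. Over all Px rats, the log2 fold change was -0.07 ± 0.50 over Sham (edgeR adjusted p = 0.911). In the same rats Nell1 averaged 9.87 ± 0.46 CPM in higher-glucose Px (SD, n = 3) and 8.97 ± 3.21 CPM in lower-glucose Px (SD, n = 7), a log2 fold change of 0.14 ± 0.25 (SE). Nell2 was singled out after its values were seen, and the difference between the responses of the 2 genes was not tested.

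**Figure D5:**
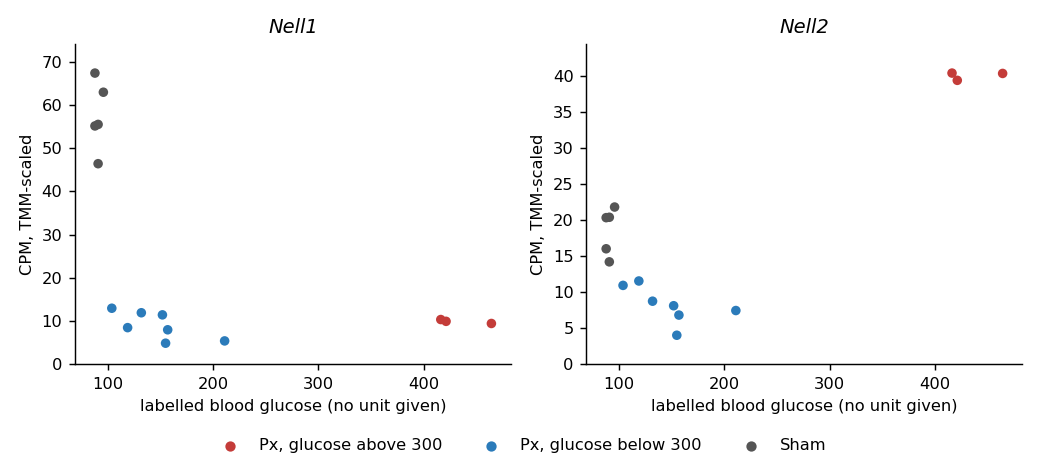
CPM (TMM-scaled, linear axes starting at 0) of Nell1 and of its paralog Nell2 against the labelled blood glucose of each rat, coloured as higher-glucose Px, lower-glucose Px and Sham. Nell1 is low in all 10 Px rats, at 4.83 to 12.9 CPM, while Nell2 is at 39.4 to 40.4 CPM in the 3 higher-glucose Px rats and at 4.00 to 11.5 CPM in the 7 others.

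Partners of the junction proteins were counted next. Of 12 cadherins, catenins and nectins tested, 5 fell, 4 rose and 3 did not pass, with a median log2 fold change of -0.06, where 30.2% of all genes fell and 34.5% rose. Nectin1 fell by 1.16 ± 0.10 and Nectin3 by 0.74 ± 0.11 on the log2 scale (SE, edgeR adjusted p = 1.18e-07 and 1.24e-05). Both are immunoglobulin-like adhesion molecules of the adherens junction. P-cadherin, Cdh3, rose by 3.45 ± 0.48 (edgeR adjusted p = 9.72e-06) and beta-catenin, Ctnnb1, by 0.37 ± 0.07 (0.000339 by the same test), though the log2 fold change of Ctnnb1 was -0.26 under library totals. With the fibroblast score as a covariate Cdh3 was at 0.17 ± 0.76 (edgeR adjusted p = 0.901) and Nectin1 at -0.96 (0.0583), and both calls were lost. Over all genes, 1630 were called higher and 1063 lower with that score, against 5242 and 4596 without it. Of 13 genes of the dystrophin complex, 5 rose, 2 fell and 6 did not pass, with a median of 0.31, and the share that rose was near the background. Syntrophin Sntb1 rose by 2.96 ± 0.33 and dystrophin, Dmd, by 1.48 ± 0.17 (edgeR adjusted p = 9.97e-07 and 1.24e-06), while the sarcoglycan Sgcb fell by 0.72 ± 0.10 and utrophin, Utrn, by 0.65 ± 0.11 (edgeR adjusted p = 6.31e-06 and 7.19e-05). The calls of Nectin3, Sgcb and Utrn were lost under granule scaling (edgeR adjusted p = 0.194, 0.0843 and 0.260).

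Genes related to Cabp7 and to Slc35d3 by function were counted in the same way. Of 14 calcium sensors and phosphatidylinositol 4-kinases tested, 6 fell, 1 rose and 7 did not pass, with a median log2 fold change of -0.27. Kcnip1, a calcium-sensing partner of potassium channels, fell by 1.62 ± 0.18 and the kinase Pi4ka by 0.83 ± 0.08 on the log2 scale (SE, edgeR adjusted p = 1.22e-06 and 2.53e-07). Of the other kinases, Pi4k2a fell by 0.92 ± 0.12 and Pi4kb by 0.20 ± 0.07 (edgeR adjusted p = 6.84e-06 and 0.0204). Pi4k2b did not pass (0.297 by the same test). Which of these kinases Cabp7 acts on in islets was not tested. The one gene that rose, Hpcal1 (0.33 ± 0.13, edgeR adjusted p = 0.0368), lost the call without any one of Px replicates 13, 14, 15, 16 and 19 or Sham replicates 23, 24 and 27 (adjusted p = 0.0506 to 0.118) and had a log2 fold change of -0.35 under library totals. Of 21 other SLC35 transporters, 7 fell, 4 rose and 10 did not pass, with a median of -0.20; over all genes 30.2% fell and 34.5% rose, and the share of these transporters that fell was near that background. Slc35g1 fell to 5.94 ± 1.25 CPM in Px, against 19.3 ± 0.65 CPM in Sham (log2 fold change -1.70 ± 0.14, edgeR adjusted p = 6.55e-08). Slc35a3, a carrier of UDP-N-acetylglucosamine, fell by 0.74 ± 0.09 (edgeR adjusted p = 1.87e-06; 0.0771 under granule scaling). Slc35f1 rose by 1.77 ± 0.32 (edgeR adjusted p = 0.000128).

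Regulators shared by neurons and endocrine cells were mostly lower. Of 11 tested, 9 fell, 1 rose and 1 did not pass, with a median log2 fold change of -0.96, where 30.2% of all genes fell and 34.5% rose. The splicing factor Nova1 had 10.9 ± 1.77 CPM in Px and 29.9 ± 4.68 CPM in Sham, a log2 fold change of -1.46 ± 0.12 (SE, edgeR adjusted p = 7.40e-08). The zinc finger factor Myt1 had 30.2 ± 6.52 CPM in Px and 81.2 ± 15.5 CPM in Sham, a log2 fold change of -1.42 ± 0.15 (edgeR adjusted p = 4.81e-07). Rest, the repressor of neuronal genes that binds RE1 and is normally silent in neurons and beta cells, was the gene that rose. It had 6.87 to 17.1 CPM in Px and 0.85, 2.12, 1.71, 0.89 and 1.26 CPM in Sham, with a log2 fold change of 2.83 ± 0.27 (edgeR adjusted p = 2.19e-07). Its highest level was in Px replicate 8, the library with the highest macrophage markers and the lowest levels of 8 of the 9 genes. Px replicate 14 went the other way. It had the next highest Rest level (11.6 CPM) and macrophage markers (2458 CPM), but the highest Px sum of the 9 genes (214 CPM). With the macrophage or fibroblast score as a covariate the call was lost (log2 fold change 0.75 and 1.38, adjusted p = 0.698 and 0.116). No gene at all was called with the macrophage score. With the fibroblast score 1630 genes were called higher, against 5242 without a covariate. Which cells held Rest was not tested.

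Genes next to the 9 on the chromosome were examined as a check of position. Of 18 nearest tested neighbours, 4 fell, 3 rose and 11 did not pass, where 30.2% of all genes fell and 34.5% rose. Scaled by library totals 9 were called lower and 3 higher, and scaled to the granule genes 1 lower and 7 higher. Beside Cabp7, the tumour suppressor gene Nf2 had 58.9 ± 5.01 CPM in Px and 96.4 ± 5.55 CPM in Sham (log2 fold change -0.71 ± 0.07, edgeR adjusted p = 3.17e-07). Slc35d3 was the only one of the 9 with both neighbours lower: the cytokine receptor gene Il20ra had -0.94 ± 0.18 and the peroxisomal import gene Pex7 -0.52 ± 0.09 (log2 fold change and SE, edgeR adjusted p = 0.000227 and 8.29e-05). Under granule scaling the calls of Nf2 (edgeR adjusted p = 0.0513) and Pex7 (0.653) were lost. With the fibroblast score as a covariate those of Nf2, Il20ra and Pex7 were lost. Their log2 fold changes were then -0.39, 0.045 and -0.56 (edgeR adjusted p = 0.206, 0.959 and 0.183). Tmem252, beside Pgm5, had -0.30 ± 0.13 (edgeR adjusted p = 0.0476), a call lost without any one of 12 of the 15 libraries (adjusted p = 0.0587 to 0.105). The neighbours that rose were the glycine transporter gene Slc6a5 beside Nell1, Dtna beside Nol4 and Dap beside Ctnnd2, with log2 fold changes of 2.41 ± 0.65, 1.81 ± 0.27 and 1.39 ± 0.20 (edgeR adjusted p = 0.00391, 2.27e-05 and 1.66e-05). Slc6a5 was low, at 2.21 ± 1.85 CPM in Px and 0.41 ± 0.07 CPM in Sham, and did not pass by limma voom (adjusted p = 0.0698). The calls of Slc6a5, Dtna and Dap were lost once the acinar score was a covariate, with log2 fold changes of 0.81, 0.86 and 0.15 (edgeR adjusted p = 0.717, 0.192 and 0.676). Over all genes, 3088 were called higher with that score, against 5242 without it.

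The genes most like each of the 9 over all 15 libraries were found by Pearson's r of log2 CPM among 12212 genes, as a description. These r hold both groups, so a gene that differs in the same way between Px and Sham scores high. The 9 genes were picked for such a difference, so likeness among them follows from the choice. The 9 often found each other: Ctnnd2 was nearest to Fam163b (r = 0.992) and to Pgm5 (0.992), Fam163b was nearest to Slc35d3 (0.991) and to Ctnnd2 (0.992), and Slc35d3 was second nearest to Nol4 (0.986). Nell1 was nearest to the adenosine receptor gene Adora1 (r = 0.987) and the kainate receptor gene Grik3 (0.985). Cabp7 was nearest to the GABA-B receptor gene Gabbr2 (0.979) and Nrsn1 (0.974). Zswim5 was nearest to Myh10, a non-muscle myosin (0.992), and Vps39 (0.992), Nol4 to the mitochondrial glycerol phosphate dehydrogenase gene Gpd2 (0.987) and Glt1d1 to Nsg2 (0.989) and Ppp1r3d (0.989). Ogdhl was second nearest to Ctnnd2 (0.992) and Amigo1 to Pgm5 (0.988). Within the 10 Px libraries alone, the mean log2 level of the 9 genes was closest to Adora1 (r = 0.944), Triqk (0.909), Stau1 (0.906), Tspan7 (0.906) and Gabbr2 (0.898). Adora1 had 13.01 CPM in Px and 44.0 CPM in Sham on average, and Triqk had 6.10 CPM in Px and 6.66 CPM in Sham. These r are the highest of 12212 genes over only 10 libraries. How many as high would arise by chance was not counted, so nothing is read from them.

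In the authors' deposited table of the same contrast, the log2 fold changes of the 9 genes were -2.77 for Cabp7, -2.69 for Nell1, -1.83 for Glt1d1, -1.77 for Pgm5, -1.75 for Fam163b, -1.64 for Zswim5, -1.53 for Nol4, -1.48 for Slc35d3 and -1.39 for Ctnnd2. The largest falls were in a different order there, with Cabp7 before Nell1, by differences smaller than their standard errors here.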

How the data were processed

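Polyadenylated RNA of islets from 10 Px and 5 Sham rats was extracted with a miRNeasy kit and made into directional libraries, per the labels' protocols. The authors deposited a table of raw counts per gene with each gene's positions, strand and exon length; FastQC, Subread, featureCounts and limma are named in the submitters' processing notes, without versions or genome build. Their second deposited table holds log2 fold changes, linear fold ratios and p-values of Px against Sham.

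The 9 genes and the 17 gene lists beside them were chosen with earlier results of these data known. Of the 28914 genes, 4 rows carry a repeated symbol turned into a date, none of them discussed here. Genes were kept by edgeR's filterByExpr (minimum count 10, minimum total 15), which left 15199. Libraries were scaled by TMM, and CPM were computed from the counts. Px was set against Sham with the quasi-likelihood test of edgeR 4.0.16 in R 4.3.3, two-sided, with Benjamini-Hochberg adjustment over all genes tested and a threshold of 0.05. A fit of 3 groups (Px with a labelled glucose of 300 or above, Px below 300, Sham) gave the glucose comparison. Log2 CPM for correlations used a prior count of 2. DESeq2 1.42.0 and limma 3.58.1 were alternatives. On simulated counts (15039 genes), 48, 46, 50 and 50 genes were changed by -2, -1, 1 and 2 on the log2 scale. The test called 89.6%, 80.4%, 64% and 92% of them, and 0.027% of unchanged genes. Few genes were changed there and the groups did not differ in acinar share, so these rates do not cover errors that come from the scaling. Any pair of libraries held equal counts in at most 1.18% of genes, so none was a copy of another.

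Named beside the 9 genes were, from each list, up to 2 higher and 2 lower genes by smallest p, paralogs, both chromosomal neighbours of each gene, and the genes of most similar pattern with a mean of at least 1 CPM and a proper symbol. Promoter windows came from RefSeq (GRCr8) and were searched as letters. Depth was 12205650 to 33423286 counts per library, and each of the 9 genes had at least 58 counts in every library.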

Additional observations from a re-analysis of the deposited data

Results flagged for a closer look

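Of the 18 sets of values examined for a single rat far from the rest (9 genes in each group), 1 met the criterion. Zswim5 in Sham replicate 27 was at 52.1 CPM, while the nearest other Sham rat was at 45.4 CPM. Chance alone marks a small share of such sets, about as many as were found here. This rat had the highest Sham level of 7 of the 9 genes, all but Ctnnd2 and Pgm5, with 67.4 CPM of Nell1 and 57.9 CPM of Slc35d3 among them. Without it the median log2 fold change of the 9 genes was -1.73.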

How the results depend on the processing

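The median log2 fold change of the 9 genes over Sham was -1.74, and -1.77 to -1.71 without single libraries. It was -2.40 with library totals, -1.30 with granule scaling, and -1.92, -1.55 and -1.46 with the acinar, macrophage and fibroblast score as a covariate; each of the 9 was negative in every one of these fits. The 4596 genes called lower became 7951, 998, 2491, 0 and 1063 in the same order (4287 to 4570 without single libraries). The 7 paralogs called became 16 with library totals and 4, 0 and 2 with the 3 covariates (6 to 9 without single libraries). The 7 neighbours called became 12 with library totals and 0 and 3 with the macrophage and fibroblast scores (6 to 7 without single libraries), and with granule scaling 7 were higher and 1 lower. The median for higher- over lower-glucose Px, 0.08, was -0.38 with library totals and -0.33 with granule scaling, and 0.04 to 0.15 without single libraries. The 0 relations that passed within Px became 14 with library totals and were 0 without each library in turn. RLE scaling, DESeq2, limma voom, both filters and either glucose group alone kept all these counts within 1.5 times. The covariates differ between the groups without overlap. Granule scaling sets the libraries by 8 genes, of which 4 fell in Px and 3 were higher in higher-glucose Px. Fold changes under it are relative to those genes. The cause of the other shifts was not tested.

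Single genes changed sign as follows (log2 fold change, Px over Sham). With library totals Zswim6 was at -0.11, Zmat5 -0.50, Ctnnb1 -0.26 and Hpcal1 -0.35. With granule scaling Pkp4 was at 0.11, Pgm1 0.14, Zswim8 0.11, Ctnnd1 0.28, Nell2 0.24 and Tmem252 0.14. With the acinar score Hpcal1 was at -0.31. With the macrophage score Zswim6 was at -0.25, Ctnnd1 0.17, Nell2 2.57, Il20ra 0.24 and Hpcal1 -0.090. With the fibroblast score Pkp1 was at -0.44, Zswim6 -0.20, Pkp4 0.18, Nell2 4.20, Il20ra 0.045 and Tmem252 0.18. Nell2 was at 1.09 in higher-glucose Px alone and between -0.28 and 0.055 without single libraries. The Nell2 alternatives for the glucose comparison were chosen after seeing the data. No paired analysis was possible because the Px and Sham libraries share no replicate number. Each of the 9 genes had at least 58 counts in every library, and the glucose comparison rests on 3 higher-glucose libraries.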
